A study of Mus musculus with 16 samples.

Results

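Mitral and tufted cells are the output neurons of the olfactory bulb (OB). The 8 genes Slc17a7, Slc17a6, Tbr1, Tbx21, Eomes, Cdhr1, Reln and Doc2g are used to recognise these cells, and their RNA was followed here in microglia isolated from the OB. The genes were taken by symbol from a table of 57010 genes. All 8 had counts in each of the 16 libraries, and all 8 were among the 18227 genes that reached at least 5 counts in at least 8 libraries and were tested.

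The study asked how microglia of the OB differ between WT mice and App NL-G-F mice (KI), which carry a humanised App gene with Swedish, Arctic and Iberian changes at its own locus, on a C57BL/6J background. Mice were 2 months old, and 4 libraries were made from each sex of each genotype. The letters m and f in the sample titles are read here as male and female. After perfusion, bulbs were digested with papain and cells were enriched with beads against CD11b, a surface protein of microglia and other myeloid cells, so the isolate can also hold RNA of other bulb cells. The study lists as many microglia isolations per genotype as there are libraries, but does not tie a library to a mouse, and its reporting form mentions technical replicates for RNA sequencing. The p-values measure the spread between these libraries.

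Mitral and tufted cells receive olfactory nerve input in the glomeruli, release glutamate onto inhibitory granule and periglomerular cells, and send axons to the olfactory cortex. Vesicular glutamate transporters fill their synaptic vesicles, T-box transcription factors set and maintain their identity, and reelin is a glycoprotein they secrete. None of these genes is a marker of microglia.

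Library totals ran from 9052932 to 18117286 counts, so that 3 counts, the limit that a count of 0 allows, corresponded to 0.169 to 0.346 CPM (the depth-normalised count, with library totals corrected by TMM). The 12 microglia markers were high throughout, with a summed level of 21110 to 25150 CPM, and none of them was called by genotype. A pair of libraries stood apart, WT female replicates 1 and 2. Their summed CPM of 8 olfactory sensory neuron markers was 127 and 128, against 25.8 to 48.0 in the other 14 libraries. Their sums of 8 endothelial markers, 156 and 191, and of 8 astrocyte markers, 986 and 1177, were also above those of the other libraries, which reached 113 and 792. The main genotype results that rest on these libraries are given with and without them.

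Reln, Cdhr1 and Slc17a7 were the 3 most abundant of the genes and varied together, so the start regions of these genes are shown. The sequences are the 250 bases before the canonical transcript start in GRCm39, 5′ to 3′ on the gene's own strand, with the GC box (GGGCGG, searched on both strands) in capitals.
Reln (chr5:22549701-22549950, minus strand): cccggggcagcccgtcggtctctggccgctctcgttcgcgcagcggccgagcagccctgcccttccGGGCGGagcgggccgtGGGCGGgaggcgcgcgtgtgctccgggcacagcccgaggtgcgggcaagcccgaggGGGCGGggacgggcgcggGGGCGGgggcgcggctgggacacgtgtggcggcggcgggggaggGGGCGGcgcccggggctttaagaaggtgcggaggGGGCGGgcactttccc
Cdhr1 (chr14:36820485-36820734, minus strand): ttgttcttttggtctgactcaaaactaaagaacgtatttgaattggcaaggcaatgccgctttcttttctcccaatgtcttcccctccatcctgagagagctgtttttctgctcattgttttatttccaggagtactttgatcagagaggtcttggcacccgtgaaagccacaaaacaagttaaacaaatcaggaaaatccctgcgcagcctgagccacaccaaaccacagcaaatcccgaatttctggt
Slc17a7 (chr7:44813074-44813323, plus strand): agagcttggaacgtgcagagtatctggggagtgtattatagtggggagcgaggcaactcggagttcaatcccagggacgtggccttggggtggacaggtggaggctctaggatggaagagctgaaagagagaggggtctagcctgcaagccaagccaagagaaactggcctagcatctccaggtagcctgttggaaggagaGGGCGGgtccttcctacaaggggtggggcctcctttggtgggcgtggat

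The Reln window held 6 GC boxes and was 80.8% G or C, the Slc17a7 window held 1 and was 58% G or C, and the Cdhr1 window held 0 and was 44% G or C. The median G and C content over the windows of 21770 protein-coding genes was 53.2%. A GC box was present in 4 of the 8 windows and in 48.2% of the windows of the 13687 tested protein-coding genes. The T-box core motif GGTGTGA, searched on both strands because 3 of the genes encode T-box factors, was in 0 of the 8 windows and in 3.23% of all windows.

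Reln encodes reelin. It lies on the minus strand at chr5:22089452-22549700 (GRCm39, as are the positions of the other genes). In WT males it reached 90.3, 111, 108 and 76.0 CPM in replicates 1 to 4, and in KI males 69.4, 41.4, 75.9 and 72.7 CPM. The male groups did not overlap, although WT replicate 4 and KI replicate 3 were nearly level. In WT females the values were 20.3, 22.3, 109 and 59.3 CPM, and in KI females 103, 70.4, 79.3 and 68.7 CPM. WT female replicates 1 and 2 were the lowest of the 16 libraries, and WT female replicate 3 was the second highest.

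Cdhr1 encodes a cadherin-related membrane protein and lies at chr14:36799807-36820484 on the minus strand. WT males had 42.4, 55.1, 58.1 and 42.1 CPM and KI males 33.1, 19.3, 37.6 and 37.0 CPM. As for Reln, the KI male libraries were below all 4 WT male libraries. WT females had 9.12, 10.9, 53.7 and 30.2 CPM and KI females 44.8, 24.97, 40.6 and 33.3 CPM. WT female replicates 1 and 2 were again the lowest of the 16.

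Slc17a7 encodes VGLUT1, a transporter that loads glutamate into vesicles, and lies at chr7:44813305-44825644 on the plus strand. WT males had 18.7, 22.9, 26.6 and 22.2 CPM and KI males 15.3, 12.1, 16.9 and 14.5 CPM, with no overlap. WT females had 10.4, 6.93, 26.4 and 14.2 CPM and KI females 21.6, 13.9, 23.8 and 15.8 CPM. The female ranges overlapped for each of these 3 genes, since WT female replicate 3 was higher than each KI female library.

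Slc17a6, at chr7:51271434-51320867 on the plus strand, encodes VGLUT2, the second vesicular glutamate transporter of these neurons. It was close to the detection limit, with 2 to 13 counts per library. Its level ran from 0.559 to 0.811 CPM in WT males and from 0.248 to 0.755 in KI males. In females it ran from 0.171 to 0.927 in WT and from 0.430 to 0.869 in KI libraries. The groups overlapped in both sexes.

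The T-box genes were also low. Tbr1, at chr2:61633274-61644458 on the plus strand, had 4 to 19 counts per library. It was at 0.406 to 0.787 CPM in WT males, 0.335 to 0.842 in KI males, 0.4998 to 0.939 in WT females and 0.745 to 1.63 in KI females, and the highest of the 16 libraries was KI female replicate 3. Tbx21, at chr11:96988897-97006158 on the minus strand, had 2 to 14 counts. It was at 0.448 to 0.609 CPM in WT males, 0.168 to 0.826 in KI males, 0.312 to 0.570 in WT females and 0.299 to 0.935 in KI females. For both genes the genotypes overlapped in each sex.

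Eomes, at chr9:118307280-118315200 on the plus strand, was the steadiest of the 8, with 17 to 42 counts and 1.63 to 2.91 CPM over the 16 libraries. KI males spanned 2.01 to 2.21 CPM, inside the WT male range of 1.85 to 2.91. Tbx21 and Eomes are expressed by T and natural killer (NK) cells as well. Of 16 T and NK markers 6 were tested. Their summed level over the whole list was 7.30 to 13.7 CPM in WT and 8.35 to 22.6 CPM in KI libraries, and the T cell receptor genes Cd3d, Cd3e, Cd3g, Trac and Trbc2 were at 0 in at least 1 library and did not exceed 0.587 CPM. The 3 most abundant of the list were Cd4 at 6.66, Klrk1 at 1.06 and Gzma at 0.938 CPM, against 0.529 for Tbx21 and 2.18 for Eomes. Of the 6 tested, 1 was called by genotype over both sexes, Il2rb (0.896 CPM, lower in KI), against 8.64% of all tested genes. The part of T and NK cells in the T-box values was not tested.

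Doc2g encodes a member of the double C2 protein family and lies at chr19:4052131-4057200 on the plus strand. WT males had 1.37, 1.24, 3.36 and 1.93 CPM and KI males 2.21, 2.56, 2.60 and 2.95 CPM. WT females had 3.75, 3.70, 2.07 and 2.56 CPM and KI females 1.60, 2.16, 2.49 and 2.17 CPM. WT female replicates 1 and 2, lowest for Reln and Cdhr1, were thus the highest for Doc2g. Doc2g shares 3108 exonic bases with the protein-coding gene Gm49405 on the same strand, so reads of these genes may have been split or discarded. Antisense lncRNAs share 311 exonic bases with Slc17a7, 549 with Slc17a6, 430 and 192 with Eomes, 554 and 564 with Reln and 51 with Doc2g. These overlaps come from a later gencode release than the one used for counting. The strand setting of the counting is not given in the sources used here.

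**Figure D1:**
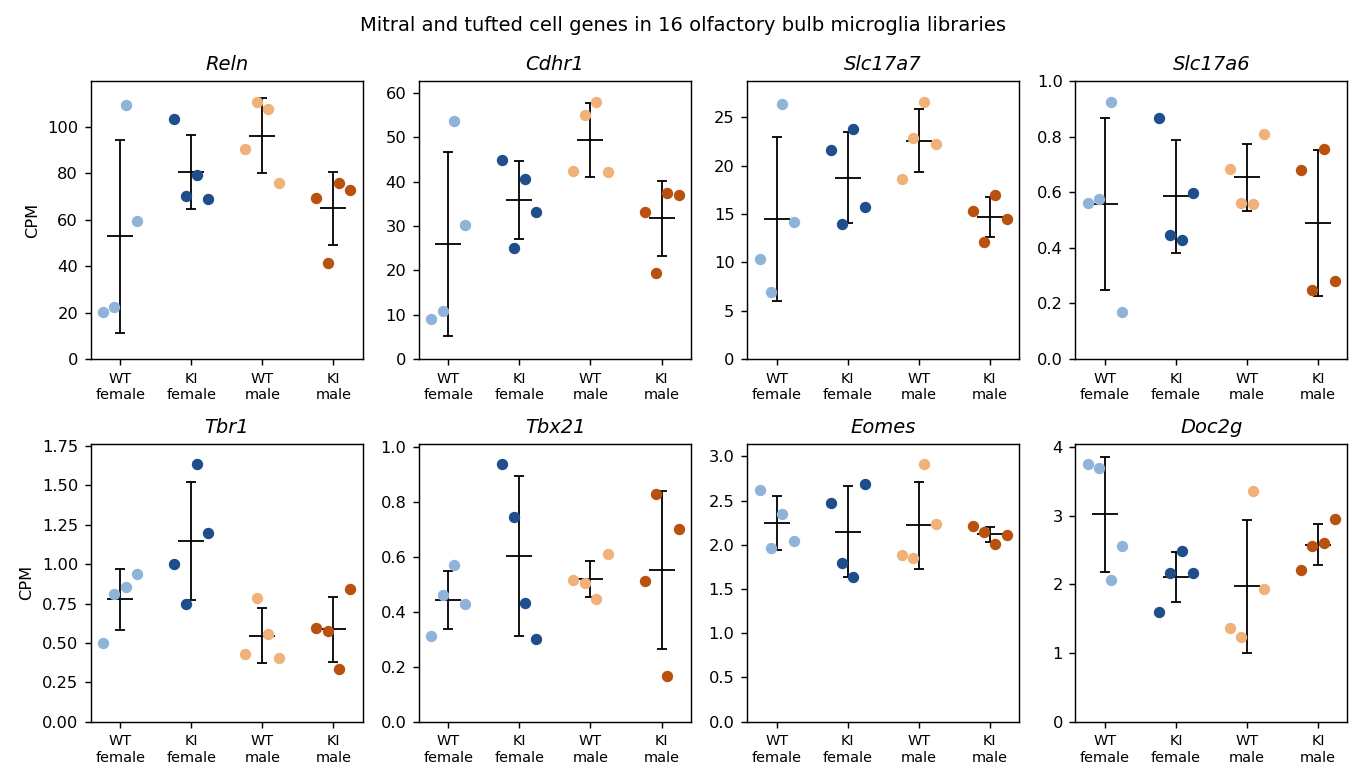
CPM of the 8 genes in each library. Points are the 4 libraries of a group in replicate order, bars are the group mean and SD, and each vertical axis starts at 0. Reln, Cdhr1 and Slc17a7 show low WT female replicates 1 and 2 and separate WT and KI males, while the values of Slc17a6, Tbr1, Tbx21, Eomes and Doc2g overlap between genotypes in both sexes.

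Per kilobase of exon, the level of Cdhr1 was the highest of the 8, at 7.25 ± 2.94 CPM per kb (SD, n = 16), followed by Slc17a7 at 3.18 ± 1.05 and Reln at 3.10 ± 1.18. Reln therefore led in CPM but not per length, its exons covering 23738 bases. Doc2g followed at 0.544 ± 0.168 and Eomes at 0.525 ± 0.0846. Tbx21 was at 0.213 ± 0.0804, Tbr1 at 0.139 ± 0.0604 and Slc17a6 at 0.1001 ± 0.0382 CPM per kb. Between neighbours in this order the ranges over the libraries separated Reln from Doc2g and Eomes from Tbx21, and overlapped elsewhere. Reln, Cdhr1 and Slc17a7 together held 83.7% to 97.5% of the summed CPM of the 8 genes.

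The 8 genes differed in how far replicate libraries spread. The variance within groups was 138 times the counting variance for Reln, 72.7 times for Cdhr1 and 20.9 times for Slc17a7 (12 degrees of freedom). It was 2.48 times for Doc2g and 1.28 times for Slc17a6. For Tbr1 (0.99), Tbx21 (1.04) and Eomes (0.826) it was about what counting alone gives. The abundant genes therefore varied between libraries of 1 group well beyond counting error, while for the T-box genes no such variation was detectable at this depth. These ratios include WT female replicates 1 and 2 and were not computed without them. The SD of Reln CPM was 79% of the mean in WT females, 19.9% in KI females, 16.8% in WT males and 24.5% in KI males.

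**Figure D2:**
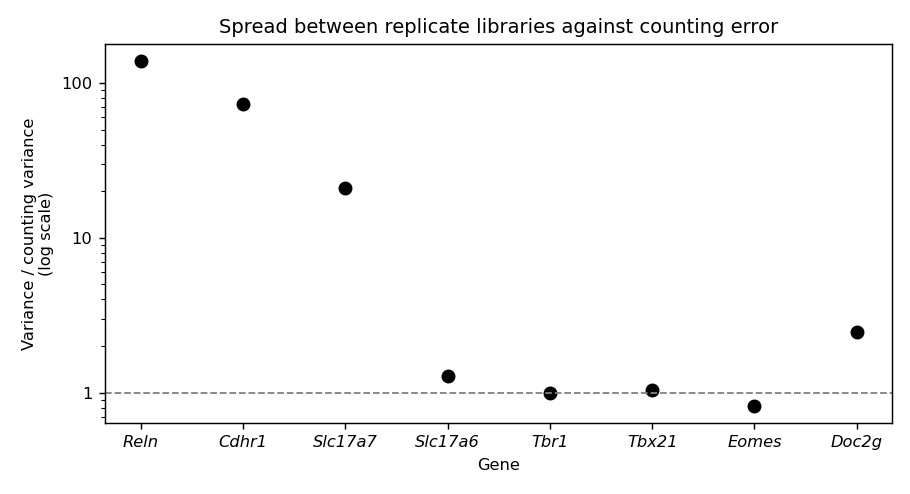
Variance between replicate libraries divided by the variance expected from counting, on a log axis, for each gene over 16 libraries with group means removed. The dashed line marks a ratio of 1, which Tbr1 (0.99), Tbx21 (1.04) and Eomes (0.826) lie close to and Reln (138) exceeds most.

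Across the libraries, with the group means removed, Cdhr1 and Reln had a Pearson's r of 0.98 and a Spearman's rho of 0.96 (n = 16, permutation tests within groups, adjusted over 28 pairs p = 0.0031 and p = 0.0062), with r = 0.95 without the 2 libraries farthest from the median. Slc17a7 went with Cdhr1 (r = 0.89, rho = 0.87, permutation, adjusted p = 0.017 and 0.0099, r = 0.79 without 2 libraries). It went with Reln less closely (r = 0.87, rho = 0.80, permutation, adjusted p = 0.027 and 0.052, r = 0.68 without 2 libraries). In raw terms the ratio of Reln to Cdhr1 CPM stayed between 1.81 and 2.82, a 1.56-fold span, while the ratio of Doc2g to Reln spanned 16.5-fold. The top of the Doc2g to Reln range came from WT female replicates 1 and 2, the lowest for Reln and the highest for Doc2g. The remaining 25 pairs had adjusted p-values of 0.56 or more.

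Doc2g had a negative r with Reln (r = -0.49, rho = -0.55, permutation, adjusted p = 0.58 and 0.56). Without WT female replicates 1 and 2 it was -0.17 over 14 libraries, so this relation rested on those libraries. The r of Reln with Cdhr1 was 0.93 without them, that of Slc17a7 with Cdhr1 was 0.87 and that of Slc17a7 with Reln was 0.77. The library names carry numbers 1 to 16, whose meaning is not given. Within numbers 1 to 8 the r of Reln with Cdhr1 was 0.982 and of Reln with Slc17a7 0.646. Within 9 to 16 they were 0.995 and 0.904 (8 libraries each). Group means were removed within each set of numbers, so each r rests only on differences inside groups of 2 libraries.

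**Figure D3:**
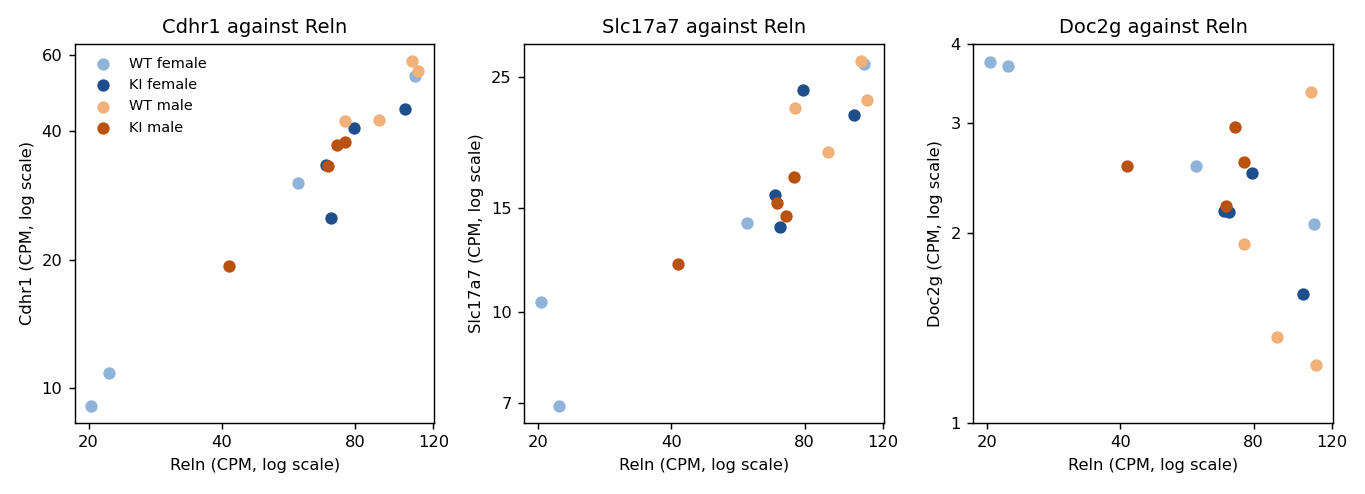
Cdhr1, Slc17a7 and Doc2g against Reln in the 16 libraries, in CPM on log axes, colored by group. Cdhr1 and Slc17a7 climb with Reln over its range of 20.3 to 111 CPM, and the WT female libraries at the lower left of both panels have the highest Doc2g values.

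No relation of the 8 genes with other cell markers passed the correction. Against the mean log2 CPM of 13 pan-neuron genes, Reln had an r of 0.05 and Slc17a7 of 0.34, and over the 40 relations of the 8 genes with 5 marker lists the lowest adjusted p was 0.66 by Pearson's and 0.35 by Spearman's permutation test. The likeness of other genes is given as a description over 13784 candidate genes, with no test. Most like Reln after Cdhr1 (r = 0.981) was Chgb, encoding a secretory granule protein, at 0.959. Most like Cdhr1 after Reln were Chgb at 0.954 and Fstl5 at 0.936. Slc17a7 had Gabrb2 at 0.896, Cdhr1 at 0.891 and Trim41 at 0.884. The genes nearest to Doc2g were Lrrc56 at 0.916, Srsf5 at 0.870 and Ulbp1 at 0.861, and those nearest to Eomes were Rspry1 at 0.845, Dennd2c at 0.809 and Glrp1 at 0.785.

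Over both sexes, none of the 8 genes differed between KI and WT in edgeR's quasi-likelihood test with sex as a term. A gene was called at a false discovery rate (FDR) under 0.1 and an absolute log2 fold change over 0.5, which 8.64% of the tested genes met (4.33% higher and 4.3% lower). At an unadjusted p under 0.05 there were 0 of 8 by edgeR, 0 by DESeq2 and 0 by limma voom, against 24.1% of all tested genes by edgeR. Reln averaged 74.5 ± 37.3 CPM in WT and 72.6 ± 16.9 CPM in KI libraries (SD, n = 8), a log2 fold change of 0.01 (SE 0.291, FDR 0.991). The interval of 2 SE, -0.571 to 0.594, leaves room for a sizeable difference in either direction. Fewer neurons or less RNA per neuron cannot be told apart in such bulk samples.

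For the glutamate transporters the log2 fold changes were -0.13 (Slc17a7, interval -0.575 to 0.313) and -0.17 (Slc17a6, -0.785 to 0.448). Cdhr1 was at -0.10 (-0.691 to 0.491), Eomes at -0.06 (-0.353 to 0.235) and Doc2g at -0.06 (-0.509 to 0.398). Tbr1 had the largest value, 0.35 (-0.142 to 0.847, edgeR FDR 0.425), and Tbx21 had 0.29 (-0.307 to 0.88). The median over the 8 genes was -0.06, with 3 above 0, against a median of -0.00 and 49.6% above 0 over all tested genes. By exact permutation of genotype within sex, the 8 two-sided p-values ran from 0.182 for Tbr1 to 0.991 for Doc2g.

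Without WT female replicates 1 and 2, an alternative chosen after seeing the data, Reln moved to -0.37 (SE 0.165, edgeR FDR 0.243), Cdhr1 to -0.47 (SE 0.172, FDR 0.145) and Slc17a7 to -0.41 (SE 0.156, FDR 0.162). These 3 genes had an unadjusted p under 0.05 in that fit, as did 18.4% of its genes, and none of the 8 was called, against 4.73% of its genes.

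In males, KI libraries were lower than WT libraries for Reln, Cdhr1 and Slc17a7. Reln was at 96.1 ± 16.2 CPM in WT and 64.8 ± 15.9 CPM in KI males (SD, n = 4), Cdhr1 at 49.4 ± 8.36 and 31.8 ± 8.51, and Slc17a7 at 22.6 ± 3.27 and 14.7 ± 2.03. The 3 genes had male ranges that did not overlap, with KI lower, as did 3.19% of all tested genes. In either direction 5.01% of tested genes had male ranges apart. For each of the 3 genes the exact permutation p was 0.0286, the smallest that 70 splits of 4 against 4 allow. Ranges that do not overlap give this p by themselves, so it adds nothing to them. In the edgeR fit over all genes the log2 fold changes were -0.57 for Reln (SE 0.365, FDR 0.573), -0.64 for Cdhr1 (SE 0.379, FDR 0.539) and -0.62 for Slc17a7 (SE 0.274, unadjusted p = 0.0376, FDR 0.397). None of the 8 genes was called in males, where 0.252% of tested genes were, and 1 had an unadjusted p under 0.05 by each of edgeR, DESeq2 and limma voom, against 11.7% of all tested genes by edgeR. Without WT female replicates 1 and 2, 3 of the 8 had an unadjusted p under 0.05 in males by edgeR, against 11.9% of all genes. None of the 8 was called there, where 104 of 18322 genes were. In a fit of the males alone 3 of the 8 had such a p and none was called, where 4 of 18351 genes were. Without the low-count filter Reln, Cdhr1 and Slc17a7 were called in males, in a fit that called 2.23% of its 39394 genes and gave smaller standard errors. Since the 3 genes varied together, they do not count as 3 separate observations.

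In males the other 5 genes overlapped between the genotypes. Slc17a6 had a log2 fold change of -0.42 (SE 0.449), Doc2g of 0.44 (SE 0.291), Tbx21 of 0.10, Tbr1 of 0.07 and Eomes of -0.04. Of 20 summed gene lists, 3 lists of other cells separated the male genotypes with KI higher. The list of the genes followed here was the only 1 that separated with KI lower. The remaining lists overlapped. Among them were further mitral and tufted genes, at 43.8 to 52.7 CPM in WT and 42.95 to 44.59 CPM in KI males. Pan-neuron genes also overlapped, at 383.6 to 526.3 CPM in WT and 467.9 to 691.2 CPM in KI males. Oligodendrocyte markers summed to 243 to 282 CPM in WT and 322 to 431 CPM in KI males, endothelial markers to 53.9 to 66.2 and 73.3 to 106, and pericyte and fibroblast markers to 22.3 to 30.8 and 32.1 to 45.4. Their part in the male differences was not tested.

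In females the direction was the opposite for the abundant genes, and the spread was wider. Reln was at 52.8 ± 41.7 CPM in WT and 80.4 ± 15.99 CPM in KI females (SD, n = 4), a log2 fold change of 0.60 (SE 0.368, edgeR FDR 0.384). Cdhr1 was at 0.45 (SE 0.385, FDR 0.557) and Slc17a7 at 0.35 (SE 0.274, FDR 0.515). All 4 KI libraries were above the WT median for each of the 3, and all 4 were below it for Doc2g, whose log2 fold change was -0.52 (SE 0.28, FDR 0.314). Tbr1 was at 0.56, Tbx21 at 0.47, Slc17a6 at 0.06 and Eomes at -0.07. None of the 8 was called, against 7.15% of all tested genes, and at an unadjusted p under 0.05 there were 0 by edgeR, 0 by DESeq2 and 1 by limma voom, against 20.8% of all tested genes by edgeR. Without the low-count filter Reln was called, as were 5.42% of genes, and its standard error was smaller than with the filter.

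The female values depended on which WT libraries entered. Without WT female replicate 3, Reln was called at 1.25 (SE 0.307, edgeR FDR 0.0281), Cdhr1 at 1.11 (SE 0.338, FDR 0.0788) and Slc17a7 at 0.83 (SE 0.217, FDR 0.0385), where 5.68% of the genes tested in that fit were called. Without replicates 1 and 2 the values were -0.06 for Reln (SE 0.246), -0.22 for Cdhr1 (SE 0.264), -0.11 for Slc17a7 (SE 0.23) and -0.13 for Doc2g (SE 0.336). Library numbers 1 to 8 hold replicates 1 and 2 of each group, so the WT females among them are the pair that stood apart. Among library numbers 1 to 8 the difference of mean log2 CPM of Reln, KI minus WT, was 2.00 in females and -0.90 in males, and among 9 to 16 it was -0.12 and -0.28 (n = 2 per genotype, no test). The male differences kept 1 sign in both sets of numbers for Reln, Cdhr1 and Slc17a7, and the female ones did not for Reln and Cdhr1.

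The interaction, the female minus the male genotype effect, was 1.17 for Reln (SE 0.518, edgeR FDR 0.788). It was 1.09 for Cdhr1 (SE 0.54, edgeR FDR 0.871), 0.97 for Slc17a7 (SE 0.388, FDR 0.716) and -0.96 for Doc2g (SE 0.404, FDR 0.758). None of the 8 genes was called in the interaction, where 0.0274% of tested genes were. At an unadjusted p under 0.05 there were 3 by edgeR, 2 by DESeq2 and 4 by limma voom, against 5.94% of all tested genes by edgeR. Without WT female replicates 1 and 2 the interaction was 0.51 for Reln, 0.42 for Cdhr1, 0.51 for Slc17a7 and -0.57 for Doc2g. In that fit 0 of the 8 had an unadjusted p under 0.05 by edgeR, against 3.77% of all genes. Without WT female replicate 3, Slc17a7 was called (1.45, FDR 0.0776), where 0.21% of genes were. Without the low-count filter, which gave smaller standard errors, Reln, Cdhr1 and Slc17a7 were called, as were 1.19% of genes.

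Between the sexes, over both genotypes, none of the 8 was called, against 0.0604% of tested genes. Tbr1 was the highest in females relative to males, with a log2 difference of 0.69 (SE 0.248, unadjusted p = 0.0118, edgeR FDR 0.714), and 1 of the 8 had an unadjusted p under 0.05 by each of edgeR, DESeq2 and limma voom, against 6.56% of all tested genes by edgeR. Reln was at -0.27 and Cdhr1 at -0.37, with intervals of -0.853 to 0.313 and -0.959 to 0.224. Over the alternative fits the lowest and highest values were -0.478 and 0.114 for Reln, and -0.576 and 0.0121 for Cdhr1.

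**Figure D4:**
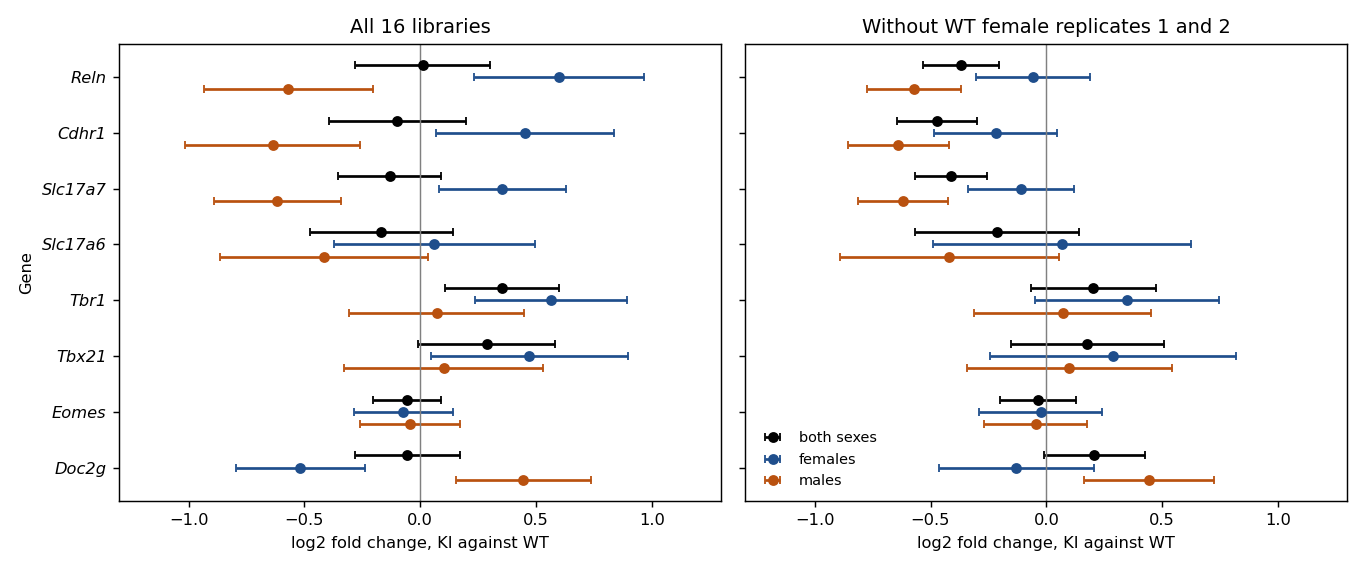
Log2 fold change of KI against WT for each gene (points) with its standard error (bars), over both sexes, in females and in males. On the left, with all 16 libraries, the female and male values of Reln, Cdhr1, Slc17a7 and Doc2g lie on opposite sides of 0, and on the right, without WT female replicates 1 and 2, the female values of Reln (-0.06), Cdhr1 (-0.22) and Slc17a7 (-0.11) lie near 0 or below it.

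Other genes listed for the same cells and pathways were read, and 8.64% of all tested genes were called over both sexes. Of 10 further mitral and tufted genes 5 were tested and 0 of 5 were called over both sexes, with a median log2 fold change of 0.22. Those not tested, Lhx1, Lhx5, Kcng1, Lbhd2 and Barhl2, averaged 0.038 to 0.325 CPM. The most abundant were Ebf3, a transcription factor (29.7 CPM, -0.09), Ntng1, a membrane-anchored netrin (9.42 CPM, 0.32, FDR 0.291), and Cck, a neuropeptide (2.22 CPM, -0.18). Ebf3 ran only from 24.8 to 34.7 CPM over the libraries, and which cells it came from was not tested. Ntng1 was called higher in KI females (0.76, edgeR FDR 0.0496), and without WT female replicates 1 and 2 it was not (0.34, FDR 0.558). Of the 9 genes of reelin signalling, all tested, 1 was called: Lrp8, a reelin receptor, rose in KI (0.53, SE 0.146, edgeR FDR 0.0284), but was not called without WT female replicates 1 and 2 (0.44, FDR 0.141). The other reelin receptor, Vldlr, was at 0.04 and the intracellular adaptor Dab1 at 0.33 (FDR 0.112), and the list's median was 0.04.

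The transporter relatives Slc17a5 and Slc17a9 were at 0.03 and -0.05, the only 2 tested of 7. Of 14 further T-box genes 5 were tested and none was called, with a median of -0.00. Of these Mga was the most abundant (155 CPM, -0.00), followed by Tbx6 (1.42 CPM, -0.28) and Tbx3 (1.34 CPM, -0.27). Of 3 tested Doc2 and rabphilin relatives Doc2a rose in KI (0.76, SE 0.241, edgeR FDR 0.0536), but not without WT female replicates 1 and 2 (0.60, FDR 0.2), while Doc2b was at 0.20 and Rph3a at -0.19.

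Other neuronal genes are given for comparison. Of 13 pan-neuron genes 0 were called over both sexes, also without WT female replicates 1 and 2. Their median was 0.17 without those libraries and 0.28 with all 16, where 11 were above 0. The 3 most abundant were Map2 at 0.37 (FDR 0.0228), Syt1 at 0.43 (FDR 0.00796) and Snap25 at 0.38 (FDR 0.00512) in edgeR, each under the fold threshold. Over all tested genes 4.33% were called higher and 49.6% lay above 0. Of 16 tested genes of OB inhibitory neurons 4 rose, with a median of 0.38 and 15 above 0. The 4 were Meis2 (0.63), Dlx6 (0.75), Synpr (0.87) and Penk (0.59), named after their values were seen, while Gad1 (0.49) and Tshz1 (0.36) were under the fold threshold. Of 8 migrating neuroblast genes 3 rose, with a median of 0.40. Without WT female replicates 1 and 2, 2 of the 16 inhibitory neuron genes (Dlx6 and Synpr) and 2 of the 8 neuroblast genes were called. Both medians were 0.34, and 4.73% of all genes in that fit were called in either direction. The 8 mitral and tufted genes had a median of -0.06 with all 16 libraries and of -0.12 without WT female replicates 1 and 2. The difference between these lists was not tested.

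**Figure D5:**
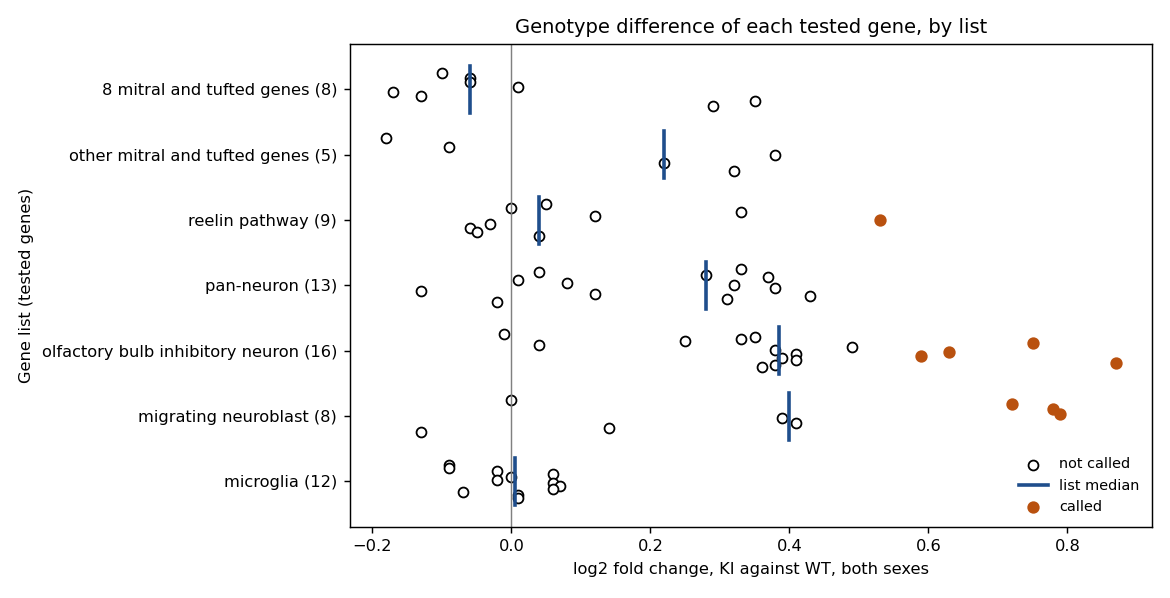
Log2 fold change of KI against WT over both sexes for each tested gene of 7 lists, with called genes filled and the median of each list as a line. The 8 mitral and tufted genes lie on both sides of 0 around a median of -0.06, and the medians of the inhibitory neuron (0.38) and neuroblast (0.40) lists lie above 0.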

How the data were processed

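RNA of CD11b-enriched olfactory bulb cells was sequenced paired-end after rRNA depletion. The authors aligned reads with STAR to GRCm39 (gencode vM32, human App added) and deposited raw counts per gene, 1 column per library. Here a gene was kept if 8 or more of the 16 libraries had 5 or more of its counts (18227 of 57010, holding 99.86% of the counts), and counts were TMM-normalized. Genotype and sex were tested with edgeR 4.0.16 (R 4.3.3), quasi-likelihood, with additive sex and genotype terms, and a model with 1 mean per group gave the within-sex contrasts and the interaction. Log2 CPM carried a prior count of 2. Correlations removed group means and used within-group permutations. Positions, exonic lengths (for 95.3% of tested genes), overlaps and start regions came from a later gencode release on GRCm39. They can therefore differ from the gene models that were counted, also for the levels per kilobase. The 8 genes and all gene lists were chosen with earlier results of these data known. Text names the 8 genes, called genes and the 3 most abundant of related lists, and the 3 genes most like each of the 8 with a median of at least 20 counts. Alternatives were RLE and library-total scaling, DESeq2 1.42.0, limma 3.58.1 voom, other filters and thresholds, no sex term, single-sex fits, replicate, library-number and pan-neuron terms, and leaving out libraries. The fitting was tested on simulated data. The values of 1 gene among those most like the 8 are not reported here.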

Additional observations from a re-analysis of the deposited data

Results flagged for a closer look

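Reln in KI male replicate 2 lay far below the other 3 KI male libraries, with a gap of 0.852 of the group's range. This was 1 of 32 groups of 4 libraries examined, of which chance flags about 1 in 20, or 1.6.

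For 4 genes the log2 CPM of the KI libraries lay on 1 side of the WT mean log2 CPM in females and on the other in males, in 4 of 4 libraries of each sex. On the linear scale this did not hold for Cdhr1 and Slc17a7 in KI female replicate 2. The share of all tested genes that meet the same rule was not computed, so how unusual this count is remains unknown. Reln, Cdhr1 and Slc17a7 varied together and are not separate observations. The interaction log2 effect was 1.17 for Reln, 1.09 for Cdhr1, 0.971 for Slc17a7 and -0.961 for Doc2g. The test of that difference did not pass the correction over all genes (edgeR FDR 0.788, 0.871, 0.716 and 0.758). Without WT female replicates 1 and 2 these effects were 0.51 for Reln, 0.42 for Cdhr1, 0.51 for Slc17a7 and -0.57 for Doc2g. Olfactory sensory neuron, endothelial and astrocyte markers were highest in those libraries, and their part was not tested.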

How the results depend on the processing

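Over both sexes none of the 8 genes was called under any alternative run. Reln turned to -0.0246 with a pan-neuron covariate, to -0.037 with no sex term and to -0.368 without WT female replicates 1 and 2, and Doc2g to 0.00275 with library totals, to 0.0101 with voom and to 0.207 without those replicates. Leaving out each library in turn gave -0.257 to 0.0215 for Slc17a7, -0.109 to 0.0122 for Eomes, -0.272 to 0.111 for Cdhr1, -0.159 to 0.224 for Reln and -0.173 to 0.0598 for Doc2g. Without the low-count filter 1 of the genes was called in females, 3 in males and 3 in the interaction, where 5.42%, 2.23% and 1.19% of all genes were, with smaller standard errors (0.0877 against 0.368 for Reln in females). Leaving out 1 library gave 0 to 3 calls in females and 0 to 1 in the interaction, the higher counts without WT female replicate 3. With the replicate block 0 of the genes were called in each comparison. Of 24 same-numbered pairs of libraries 8 had a correlation over 0.1 (-0.33 to 0.292), so the numbers were not taken to pair them. The cause of these shifts was not tested. Depth limits Slc17a6, Tbr1 and Tbx21, with as few as 2 to 4 counts in a library.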
